A study of Mus musculus with 3 samples.

Results

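The opioid receptor and peptide genes are 8 genes, *Oprm1*, *Oprk1*, *Oprd1*, *Oprl1*, *Pdyn*, *Penk*, *Pomc* and *Pnoc*, and they were described by the accessible peaks of dopaminergic neurons (DNs) in the midbrain ventral tegmental area (VTA). Members were all peaks that overlapped a gene body in the GENCODE M21 annotation by at least 1 bp or lay within 50 kb of it, which gave 39 of 55326 peaks, around 8 of 21755 protein-coding genes. The nuclei came from male wild-type C57Bl/6Nl mice, from a library of replicate 1 aged 7 weeks and a library of replicate 2 aged 9 weeks, with no treatment or transgene named in the labels. Accessibility was measured by single-nucleus ATAC-seq, in which a transposase cuts and tags open chromatin inside isolated nuclei. DNs were not sorted by cell type but picked as a cluster among the nuclei of the VTA tissue. The peaks are 1 list of positions, deposited with replicate 1, and the series text states that both libraries went into it. The list has no score, height or read count per peak, so it does not give the depth behind a peak. From the list alone the libraries cannot be compared and no test between groups is possible. The paper states that aligned reads and signal tracks of DNs are available as well, and they were not used here. A gene without a peak is one where no peak was called, and weaker accessibility was not measured. A library of mouse embryonic stem cells in the same series was not used here.

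Opioid receptors are G-protein-coupled receptors that signal through inhibitory G proteins, close calcium channels, open potassium channels and so dampen neurons. The mu receptor (*Oprm1*) binds beta-endorphin and enkephalins and is the main target of morphine, the delta receptor (*Oprd1*) prefers enkephalins, the kappa receptor (*Oprk1*) prefers dynorphins, and the nociceptin receptor (*Oprl1*) binds nociceptin. The peptides are cut from larger precursors: dynorphins from *Pdyn*, enkephalins from *Penk*, beta-endorphin from *Pomc* and nociceptin from *Pnoc*. In the VTA, mu receptors are best known on GABAergic neurons that hold DNs in check, and kappa receptors on the DNs themselves.

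Among the 4 receptor genes, *Oprm1*, *Oprk1* and *Oprl1* had a promoter peak and *Oprd1* had none, whereas none of the 4 precursor genes had one. A promoter peak was a peak whose centre lay within 1 kb of a transcription start site (TSS) of a transcript tagged basic in the annotation. The 3 of 8 genes compare with 56.4% of all protein-coding genes. A peak in the gene body was found at 5 of 8 genes, 3 receptors and the precursors *Pomc* and *Pnoc*, beside 63.8% of all protein-coding genes. All 8 genes had a peak in the body or within 50 kb of it, where 83.2% of all protein-coding genes had one. The 8 genes are too few to set these shares apart from the background.

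Promoter sequences are printed first, because presence or absence of a promoter peak separated these genes. RefSeq promoters of GRCm38.p6, whose chromosome sequences are those of mm10, matched 5 of the 8 genes. The 250 bases before the RefSeq TSS are given 5′ to 3′ on the strand of the gene, with GC boxes (GGGCGG, read on both strands) in capitals. *Oprm1* (chr10:6788320-6788569, plus strand) and *Oprl1* (chr2:181714766-181715015, plus strand) had a peak over this window, covering 233 and 250 of its bases.
Oprm1: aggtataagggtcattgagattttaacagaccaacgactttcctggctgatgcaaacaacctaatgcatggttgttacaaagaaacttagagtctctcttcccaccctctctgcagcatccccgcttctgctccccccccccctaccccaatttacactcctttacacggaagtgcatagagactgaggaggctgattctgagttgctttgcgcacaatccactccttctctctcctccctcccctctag
Oprl1: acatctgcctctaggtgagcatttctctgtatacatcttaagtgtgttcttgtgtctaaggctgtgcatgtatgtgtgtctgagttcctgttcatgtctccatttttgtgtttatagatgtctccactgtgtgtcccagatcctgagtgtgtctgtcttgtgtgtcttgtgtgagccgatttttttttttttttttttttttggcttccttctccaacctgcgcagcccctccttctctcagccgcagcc
*Oprd1* (chr4:132144487-132144736, minus strand), *Pdyn* (chr2:129699939-129700188, minus strand) and *Pomc* (chr12:3954695-3954944, plus strand) had no peak over theirs.
Oprd1: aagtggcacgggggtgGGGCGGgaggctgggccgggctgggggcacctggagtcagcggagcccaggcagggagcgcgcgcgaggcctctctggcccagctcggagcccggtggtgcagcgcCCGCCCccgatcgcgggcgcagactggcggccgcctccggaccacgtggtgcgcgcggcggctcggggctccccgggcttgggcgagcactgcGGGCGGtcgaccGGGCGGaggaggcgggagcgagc
Pdyn: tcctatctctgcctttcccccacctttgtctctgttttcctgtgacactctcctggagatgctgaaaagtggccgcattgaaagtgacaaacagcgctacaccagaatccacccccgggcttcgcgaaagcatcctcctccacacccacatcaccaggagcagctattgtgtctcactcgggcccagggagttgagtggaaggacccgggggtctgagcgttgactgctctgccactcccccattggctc
Pomc: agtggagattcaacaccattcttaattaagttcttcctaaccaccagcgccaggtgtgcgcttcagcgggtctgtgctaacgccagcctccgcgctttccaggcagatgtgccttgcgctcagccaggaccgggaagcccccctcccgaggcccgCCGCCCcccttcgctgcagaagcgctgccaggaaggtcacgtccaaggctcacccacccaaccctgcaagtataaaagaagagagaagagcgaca
The *Oprd1* sequence has a GC content of 80% and holds 4 GC boxes. The *Pomc* sequence has a GC content of 60% and holds 1 GC box. No GC box was found in the *Oprm1*, *Oprl1* and *Pdyn* sequences, whose GC contents were 50.0%, 44.4% and 57.2%. GC boxes were present in 35.7% of 32851 RefSeq promoters of 300 bp.

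The mu receptor gene *Oprm1* (ENSMUSG00000000766.18, chr10:6758506-7038198, plus strand) is the longest of the 8, at 279.7 kb, and had 3 peaks in its body. This is a density of 1.07 peaks per 100 kb, where the median of all protein-coding genes was 2.92 and 39.1% of genes had a lower density. Its promoter peak (chr10:6788337-6788836) was centred 14 bp before the TSS at position 6788601 and also covered the TSS at 6788809, which 9 of the basic transcripts share. The upstream starts at 6758506 and 6758593 were 30081 and 29994 bp from their nearest peak, which was this one. The outer start of *Oprm1* lay in a stretch of 102.3 kb without a peak, which ended at the promoter peak.

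The other peaks in the *Oprm1* body were intronic, at chr10:6916488-6916987 and chr10:6968312-6968811, and were 158.2 kb and 210.1 kb from the outer TSS. Both also lie in *Ipcef1*, a gene on the other strand that overlaps *Oprm1*, and for both the nearest protein-coding TSS belongs to *Ipcef1*. A peak list without transcripts cannot assign them to either gene. Past the 3′ end of *Oprm1*, 1 of 2 peaks lay 74 bp from a TSS of *Ipcef1*, and the other was 23870 bp from it. The central 100 bases of both intronic peaks (chr10:6916688-6916787 and chr10:6968512-6968611, plus strand) are printed because they are the only peaks that *Oprm1* had in its introns. No full match to a motif searched here fell in these bases, though an AP-1 site in the second peak begins 1 base before them, at 6968511.
Oprm1 intron, first peak: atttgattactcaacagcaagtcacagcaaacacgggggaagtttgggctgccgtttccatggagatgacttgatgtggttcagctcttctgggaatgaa
Oprm1 intron, second peak: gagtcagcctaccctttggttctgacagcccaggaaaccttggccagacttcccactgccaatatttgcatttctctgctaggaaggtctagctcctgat

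The kappa receptor gene *Oprk1* (ENSMUSG00000025905.13, chr1:5588466-5606131, plus strand) had 2 peaks, both at its promoter, and no other peak within 50 kb on either side. The peak at chr1:5588182-5588681 was centred 61 bp before the nearest TSS and lay over 2 of the 3 basic TSSs. The peak at chr1:5589098-5589597 was centred 407 bp after the TSS at 5588941 and reached into exon 2 of 4. It covered 208 coding bp, bases 50 to 257 of the 1140 bp of coding sequence. In its short body of 17.7 kb these peaks gave 11.3 per 100 kb, a density above that of 77.4% of protein-coding genes. Counted by peak centre the body held 1 peak, since the other is centred before the start of the gene. *Oprk1* is thus the 1 gene of the 8 whose peaks all sat at its own promoter.

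The delta receptor gene *Oprd1* (ENSMUSG00000050511.1, chr4:132110726-132144486, minus strand) had no peak at its promoter or in its body of 33.8 kb. Its single TSS lay in a stretch of 101.4 kb without a peak, and the nearest peak was centred 34209 bp upstream. Of all protein-coding genes, 77.6% had a peak nearer to a TSS. The 4 peaks in the window were split between 2 upstream, at 34209 and 40823 bp from the TSS, and 2 downstream near the promoter of *Epb41*, which encodes a protein of the membrane skeleton, and in the body of *Gm10300*. The peak at 40823 bp lay in *Ythdf2*, which encodes a reader of methylated RNA. None of the 4 had the TSS of *Oprd1* as its nearest protein-coding TSS.

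The peak 34.2 kb upstream of *Oprd1* (chr4:132178445-132178944) is shown because it is the nearest to the TSS and holds a full cAMP response element, TGACGTCA, the palindrome that CREB recognizes. The match lies at chr4:132178656-132178663. The central 100 bases (chr4:132178645-132178744) are given on the minus strand with the match in capitals.
Oprd1 upstream peak: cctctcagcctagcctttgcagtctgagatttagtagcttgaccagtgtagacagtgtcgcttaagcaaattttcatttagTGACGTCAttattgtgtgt
Only 2 of the 39 peaks held this element, 5.13% with a 95% exact binomial interval of 0.627% to 17.3%, and 1.51% of all peaks did. Both were in the window of *Oprd1*. The other lay at the promoter of *Epb41*.

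The nociceptin receptor gene *Oprl1* (ENSMUSG00000027584.16, chr2:181715016-181720985, plus strand) had the most peaks of the 8 genes within 50 kb, 13, of which 2 overlapped its body of 5.97 kb. With 100 kb on either side it had 16 and *Pomc* had 26, the most of the 8. Its window held 12.3 peaks per 100 kb, more than that of 89.4% of protein-coding genes, and its body 33.5 per 100 kb, more than that of 92.1%. By peak centre the body held 1 peak. The promoter peak (chr2:181714744-181715243) was centred 22 bp before the outer TSS. An intronic peak (chr2:181716976-181717475) was centred 2210 bp after it, and further peaks lay 1092 bp upstream and 7402 bp downstream of it. These 4 peaks were the ones nearest to *Oprl1*, and for the other 9 another gene had the nearest protein-coding TSS. At promoters of other genes lay 7 of the 13: 3 at *Rgs19*, a regulator that switches off inhibitory G proteins, 2 at *Tcea2*, 1 at *Sox18* and 1 at *Myt1*. The outer TSSs of *Oprl1* and *Rgs19* were 21039 bp apart, on opposite strands.

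**Figure D1:**
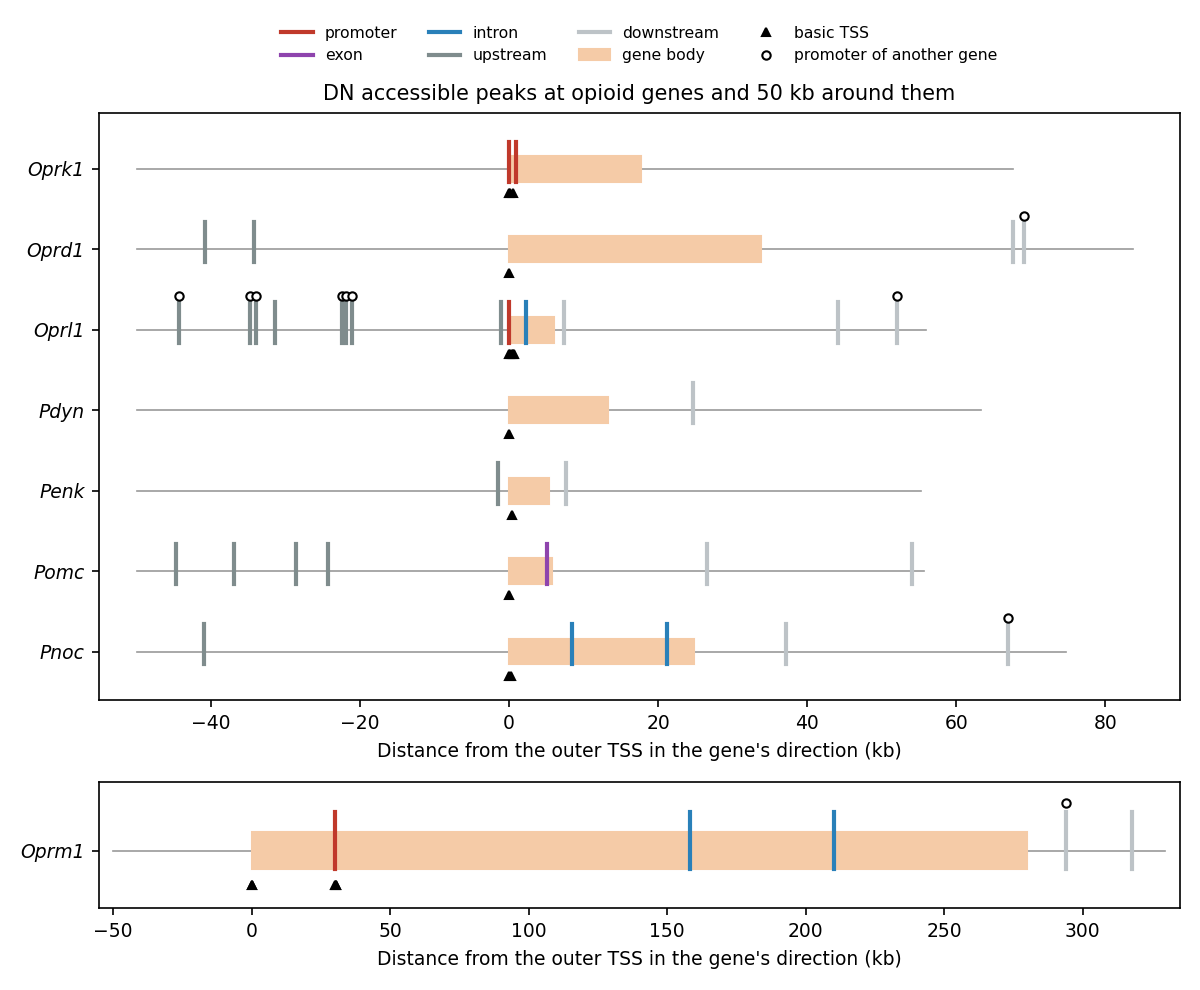
Peaks of DNs at the 8 opioid genes, drawn by distance in kb from the outer TSS in the direction of each gene, with *Oprm1* on its own axis. Bars are peaks coloured by place, boxes are gene bodies, triangles are basic TSSs and open circles mark promoters of other genes; *Oprk1* shows 2 promoter peaks and nothing else, and *Oprl1* shows 13 peaks, 7 of them at promoters of other genes.

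The dynorphin gene *Pdyn* (ENSMUSG00000027400.11, chr2:129686565-129699844, minus strand) had no peak at its promoter or in its body of 13.3 kb. Its window of 50 kb on either side held 1 peak, the fewest of the 8 genes, though with 100 kb it held 7 where *Oprk1* held 2. The window held 0.883 peaks per 100 kb, a density above that of 22.2% of protein-coding genes. The peak (chr2:129674859-129675358) was centred 24724 bp downstream of the TSS, beyond the 3′ end. The TSS of *Pdyn* lay in 125 kb without a peak, the longest such stretch among the 8, and 73.9% of protein-coding genes had their outer TSS in a shorter one. The central 100 bases of its only peak (chr2:129675059-129675158, minus strand) hold no match to the motifs searched. The peak does hold a match to the E-box CAGATGG outside these bases, at chr2:129675038-129675044.
Pdyn downstream peak: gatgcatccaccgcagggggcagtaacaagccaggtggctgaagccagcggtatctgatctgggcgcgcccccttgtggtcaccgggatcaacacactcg

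The enkephalin gene *Penk* (ENSMUSG00000045573.9, chr4:4133531-4138819, minus strand) had no peak in its body of 5.29 kb, but a peak on either side close by. The upstream peak (chr4:4140046-4140545) was centred 1819 bp before the basic TSS and 1477 bp before the outer end of the gene, outside the limit of 1 kb. The downstream peak (chr4:4130947-4131446) was 7280 bp past the basic TSS. *Penk* was the 1 precursor gene that counted as having a promoter peak with a limit of 2 kb, with which 58.0% of all protein-coding genes had one. The stretch without a peak around its outer end was 8.60 kb, below the median of 12.9 kb over all genes. It was near the middle by rank, as 48.6% of protein-coding genes had their outer TSS in a shorter one.

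*Pomc* (ENSMUSG00000020660.6, chr12:3954951-3960642, plus strand), the precursor of beta-endorphin and melanocyte-stimulating hormones, had no promoter peak but a peak in its last exon. This peak (chr12:3959779-3960278) was centred 5078 bp after the TSS in exon 3 of 3, and covered 386 coding bp, bases 133 to 518 of 705. It was the only peak of the 39 that was classed as exonic. The central 100 bases (chr12:3959979-3960078, plus strand) are all coding, with the short form of the cAMP response element, TGACG, in capitals as its reverse complement.
Pomc exon peak: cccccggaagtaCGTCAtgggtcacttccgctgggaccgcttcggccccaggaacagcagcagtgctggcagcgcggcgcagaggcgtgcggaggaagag

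Upstream of *Pomc* were 4 peaks, at 24320, 28608, 36919 and 44742 bp, and the farthest lay in the body of *Dnmt3a*, which encodes a DNA methyltransferase. Downstream were 2 peaks in *Efr3b*, at 26587 and 54000 bp from the TSS. For 4 of the 7 peaks the nearest protein-coding TSS was that of *Pomc*. The peak 24320 bp upstream (chr12:3930381-3930880) stood out by its sequence. It held 7 matches to TGACG, each exactly 35 bp from the next, in a tandem repeat, and 2 of 55326 peaks in the list held as many or more. The repeat (chr12:3930411-3930625, plus strand, 215 bases) is printed with the matches in capitals, as reverse complements. Repeated sequence can affect how uniquely reads map, which was not tested here.
Pomc upstream repeat: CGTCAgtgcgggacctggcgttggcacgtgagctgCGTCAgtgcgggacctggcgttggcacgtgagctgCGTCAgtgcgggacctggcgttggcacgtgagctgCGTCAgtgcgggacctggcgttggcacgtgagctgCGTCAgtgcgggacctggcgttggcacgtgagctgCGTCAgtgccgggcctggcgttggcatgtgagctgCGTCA

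The nociceptin precursor gene *Pnoc* (ENSMUSG00000045731.6, chr14:65400673-65425472, minus strand) had 2 intronic peaks in its body of 24.8 kb and none at either basic TSS. The intronic peaks (chr14:65416757-65417256 and chr14:65403973-65404472) were centred 8153 and 20937 bp after the nearer TSS. They gave 8.06 peaks per 100 kb of gene body, a density above that of 70.6% of protein-coding genes. A further peak lay 40980 bp upstream. Downstream were 2 peaks in *Zfp395*, 1 of them at its promoter. *Pnoc* and *Pomc* thus had peaks in the gene body without a promoter peak, a pattern that no receptor gene showed.

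**Figure D2:**
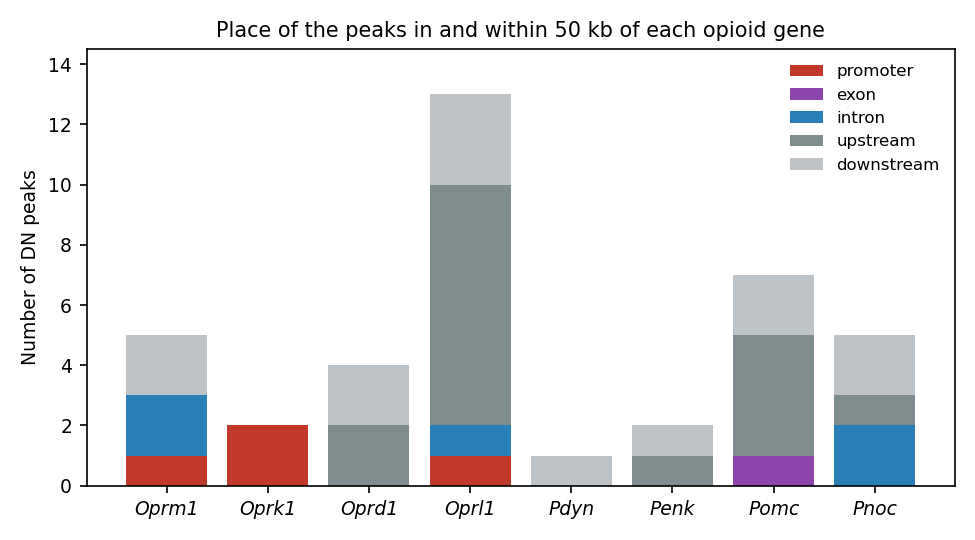
Number of DN peaks (y axis) in the body or within 50 kb of each opioid gene (x axis), stacked by place. Red promoter segments appear for *Oprm1*, *Oprk1* and *Oprl1* alone, and *Oprl1* has the tallest bar, with 13 peaks of which 8 are upstream.

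Of the 39 peaks, 4 were at promoters of opioid genes, 1 was exonic, 5 were intronic, 16 were upstream and 13 downstream. The receptor genes held 24 of them, 7 in gene bodies, and the precursor genes held 15, 3 in gene bodies. The nearest protein-coding TSS was that of the opioid gene for 17 peaks and that of another gene for 22. At promoters of other genes lay 10, and 18 lay inside another gene. Most peaks counted by the window therefore cannot be ascribed to the opioid gene by position. For the receptor genes the nearest TSS was another gene's for 17 of 24 peaks, and for the precursor genes for 5 of 15.

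The distance from a TSS to the nearest peak gives the same order without a limit. It was 14 bp for *Oprm1*, 22 bp for *Oprl1* and 61 bp for *Oprk1*, and then 1819 bp for *Penk*, 5078 bp for *Pomc*, 8153 bp for *Pnoc*, 24724 bp for *Pdyn* and 34209 bp for *Oprd1*. No gene fell between 61 and 1819 bp. Over all protein-coding genes the median was 252 bp, with quartiles of 48 and 26838 bp. The median of the receptor genes was 41.5 bp and that of the precursor genes 6615.5 bp, so the 4 precursors all lay beyond the median of all genes, as did *Oprd1*.

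**Figure D3:**
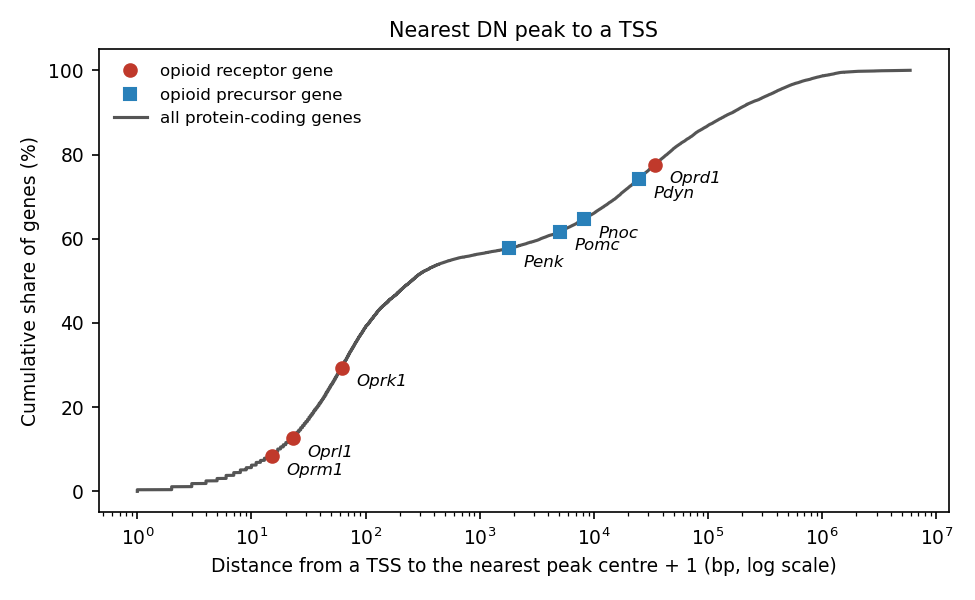
Cumulative share of protein-coding genes (y axis, %) by the distance from a TSS to the nearest DN peak centre (x axis, bp + 1, log scale), with the opioid receptor genes as circles and the precursor genes as squares. *Oprm1*, *Oprl1* and *Oprk1* sit on the steep lower part of the curve at 14 to 61 bp, and the other 5 genes sit at 1819 bp or more.

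Genes with CpG-rich promoters had promoter peaks more often than genes with CpG-poor promoters, and 4 of the opioid genes did not follow this. The CpG ratio is the number of CpG dinucleotides over that expected from base composition, taken from 250 bp before to 50 bp after a TSS, as the highest value over the basic TSSs of a gene. Of 10656 genes with a ratio above 0.65, 88.0% had a promoter peak. *Oprd1* (0.932), *Penk* (0.870) and *Pomc* (0.701) were among the 1284 genes, 12% of the class, that had none. Of 6865 genes with a ratio below 0.35, 9.06% had a promoter peak, and *Oprk1*, with a ratio of 0.32, was among these 622. In the middle class 53.8% of 4234 genes had one, and there *Oprm1* (0.482) and *Oprl1* (0.368) had a promoter peak while *Pdyn* (0.412) and *Pnoc* (0.417) did not. The 3 opioid genes with a promoter peak thus included the 2 lowest CpG ratios of the 8, and the 3 with the highest ratios had no promoter peak.

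**Figure D4:**
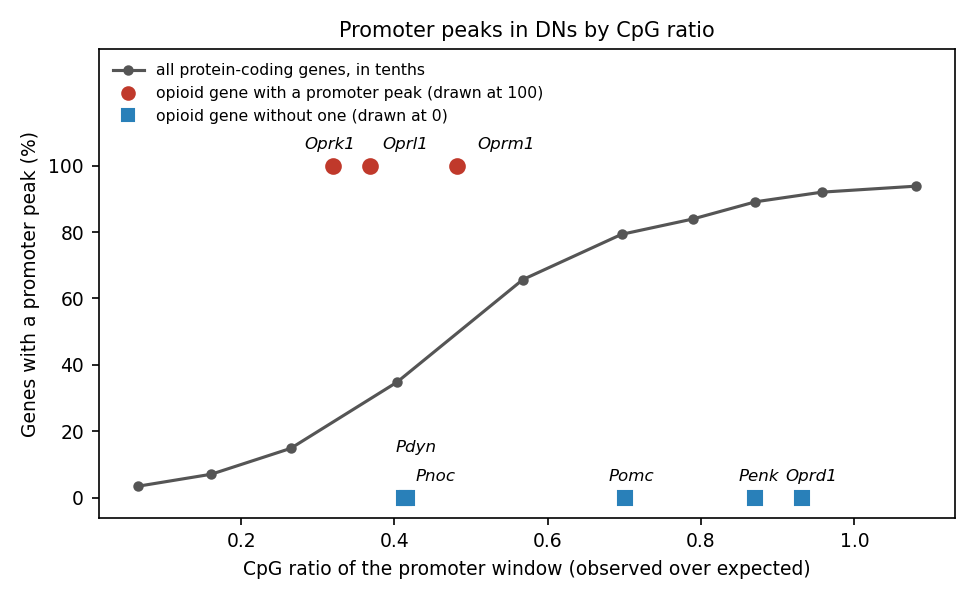
Share of protein-coding genes with a DN promoter peak (y axis, %) against the median CpG ratio of the promoter window (x axis) in 10 equal groups of genes ordered by the ratio, rising from 3.49% in the lowest group to 93.8% in the highest. Opioid genes with a promoter peak are drawn at 100 and those without at 0, and *Pomc*, *Penk* and *Oprd1* lie at 0 on the right of the plot.

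Gene length bears on the chance of a peak in the body in the same way. Body peaks were found in 40.2% of 7693 genes under 10 kb, in 73.1% of 11573 genes of 10 to 100 kb and in 93.0% of 2489 longer genes. *Oprl1* and *Pomc* had a body peak among the short genes and *Penk* did not. *Oprk1* and *Pnoc* had one in the middle class, and *Oprd1* and *Pdyn*, in the same class, did not. *Oprm1* was 1 of the 2316 long genes with a body peak.

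The sequence of the 39 peaks was like that of other peaks in median composition. Their median GC content was 50.8%, beside 52.0% for all peaks, and their median CpG ratio 0.311, beside 0.317. The upper quartiles were lower than those of all peaks, 54.8% beside 58.8% for GC content and 0.462 beside 0.615 for the CpG ratio. Of 10 short consensus sequences searched on both strands, at least 1 matched in 28 of the 39 peaks, 71.8%, and in 66.3% of all peaks. GC boxes were found in 8 peaks, 20.5%, and in 32.3% of all peaks. The AP-1 site TGANTCA is bound by Fos and Jun proteins. It was found in 6 peaks, 15.4% with an interval of 5.86% to 30.5%, and in 12.3% of all peaks. In the central 200 bp it was found in 5 of the 39 peaks, 12.8%, and in 5.38% of all peaks. No interval was computed for this small count. The NBRE, AAAGGTCA, is the site of NR4A receptors such as the DN factor *Nr4a2*. It was found in 3 peaks, 7.69% with an interval of 1.62% to 20.9%, and in 4.00% of all peaks. None of these 3 was in a promoter or the body of an opioid gene, where most of the 39 peaks did not lie either.

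Forkhead sites, TGTTTAC, the core that FOXA factors recognize, were found in 7 of the 39 peaks, 17.9% with an interval of 7.54% to 33.5%, beside 7.22% of all peaks. In the central 200 bp the share was 2.56%, beside 3.52% of all peaks, so most of the matches lay off centre. Of these 7 peaks, none was at a promoter or in the body of an opioid gene. Most of the 39 peaks lay outside both places, 16 upstream and 13 downstream. The E-box CAGATGG was found in 3 peaks, 7.69%, beside 11.5% of all peaks. TGACG, which is contained in the full element TGACGTCA, was found in 9 peaks, 23.1%, beside 26.1%. It occurred in the promoter peaks of *Oprm1* and *Oprk1*. The EGR site GCGTGGGCG was found in none of the 39 peaks, for which the interval reaches 9.03%, and in 0.663% of all peaks. The parts of the REST site, TTCAGCACC and GGACAGCGC, were found in 2 peaks and 1 peak, with 0.804% and 0.676% of all peaks holding them. Intervals are exact binomial at 95%, cover counting error only, and were not adjusted for the 10 motifs. A match is a description of sequence and not a measured binding site.

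A consensus of 12 letters for CTCF, the factor that marks loop anchors and domain borders, was added after the sequences had been seen. It matched 3 of the 39 peaks, 7.69% with an interval of 1.62% to 20.9%, and 5.25% of all peaks. The 3 peaks lay 7.40 kb downstream of the outer TSS of *Oprl1*, and 34.2 kb and 28.6 kb upstream of the TSSs of *Oprd1* and *Pomc*. The *Oprd1* peak is the one that also holds the cAMP response element. The matches are shown in capitals with 20 bases on either side, on the strand of the gene, because they are the longest consensus found in these peaks (chr2:181722369-181722420, chr4:132178749-132178800 and chr12:3926281-3926332).
Oprl1 downstream: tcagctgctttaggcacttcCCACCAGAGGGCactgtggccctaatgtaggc
Oprd1 upstream: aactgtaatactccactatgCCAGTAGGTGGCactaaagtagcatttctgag
Pomc upstream: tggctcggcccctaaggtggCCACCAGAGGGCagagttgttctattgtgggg

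Most genes that make, end or carry opioid signals had a promoter peak. Of 57 genes listed by role, 50 had a promoter peak, 87.7% beside 56.4% of all protein-coding genes and 88.0% of those in the high CpG class. A peak in the body was found in 52 of the 57, beside 63.8% of all. All 8 genes of G proteins had a promoter peak, and most body peaks were in *Gnao1* (35), the alpha subunit Go, and *Gnaz* (12), the alpha subunit Gz. All 6 genes of receptor kinases and arrestins had one, with *Arrb1*, beta-arrestin 1, at 17 body peaks and *Grk3* at 6. Of the effector channels 6 of 7 had one. *Cacna1a* and *Cacna1b*, the P/Q-type and N-type calcium channels, had 57 and 31 body peaks, and *Kcnj5*, a potassium channel subunit, had no peak at either place. Of 11 genes of adenylyl cyclases and what follows them, 9 had a promoter peak. *Adcy5* had 22 body peaks and *Adcy1* had 10. *Ppp1r1b*, which encodes the phosphatase inhibitor DARPP-32, had no peak at either place.

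RGS genes, whose proteins end G-protein signals, had a promoter peak in 7 of 9 cases, where 56.4% of all protein-coding genes had one. *Rgs7* had 8 body peaks and *Rgs8* had 7, and *Rgs10* and *Rgs14* had no peak at either place. Of 8 genes that process precursors into peptides, 7 had a promoter peak and all 8 had a body peak. Over all genes, body peaks were found in 63.8%. By length the share was 40.2% under 10 kb, the class of *Pcsk1n*, 73.1% at 10 to 100 kb and 93.0% above. *Pam*, which amidates peptide ends, had 11 body peaks, and *Pcsk2*, the prohormone convertase that cuts dynorphin and enkephalin precursors, had 7. Of 8 genes of peptide breakdown and capture, 7 had a promoter peak. *Ece1* had 21 body peaks, *Ece2* had 4, and *Anpep*, aminopeptidase N, had no peak at either place. These lists contain many genes that most cells use, and genes with most body peaks tend to be long, so the counts describe the lists and do not set them apart from other genes.

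Other receptor and peptide genes were set beside the opioid genes. Promoter peaks were found at 4 of 5 dopamine receptor genes and at 4 of 5 somatostatin receptor genes, the closest relatives of the opioid receptors, beside 3 of 4 opioid receptor genes. Of 13 other neuropeptide genes, 3 had a promoter peak, 23.1%, beside 0 of 4 opioid precursors. At 8 of the 13 there was no peak at the promoter or in the body: *Nts*, *Tac1*, *Gal*, *Cartpt*, *Vip*, *Npy*, *Sst* and *Trh*. All of these 8 but *Tac1* are under 10 kb, a class in which 59.8% of all genes had no body peak. *Nts* was 704642 bp from its nearest peak. The differences between these lists were not tested, since genes in 1 list of peaks are not replicates.

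**Figure D5:**
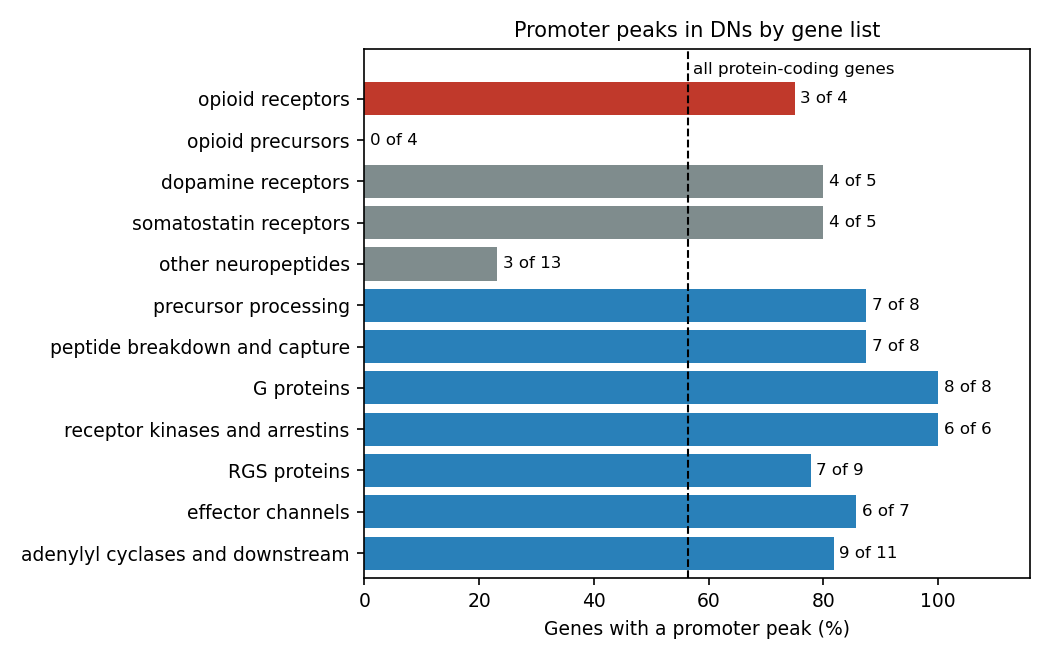
Share of genes with a DN promoter peak (x axis, %) in the opioid genes by role, the other receptor and peptide genes and the 7 lists of opioid signalling, with the count printed at the bar end and the share of all protein-coding genes, 56.4%, as a dashed line. The bars of opioid precursors (0 of 4) and other neuropeptides (3 of 13) fall short of the line, and the other bars drawn pass it.

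The labelled cell type was checked with marker genes. All 12 DN markers, among them *Th*, *Slc6a3* and *Nr4a2*, had a promoter peak, but nuclei had been assigned to DNs by accessibility at several of such genes, so this is no independent check. The oligodendrocyte markers *Mog*, *Mobp*, *Sox10* and *Olig2* had no peak at the promoter or in the body, and *Mag* had 1 peak in the body and none at the promoter. No promoter peak was found at 4 markers of astrocytes, 4 of microglia and 3 of endothelial cells, of which 2, 1 and 2 had a peak in the body. *Slc1a3*, *Aif1*, *Tmem119* and *Cldn5* were among those with no peak at either place. Of 3 markers of GABAergic neurons, *Slc32a1* had 1 promoter peak and 1 peak in the body, *Gad1* had 1 peak in the body and none at the promoter, and *Gad2* had no peak at either place. Of 2 markers of glutamatergic neurons, *Slc17a6* had 2 promoter peaks, and *Slc17a7* had no peak at either place. The list holds no value per nucleus, so whether the peaks of *Oprm1* or other opioid genes came from the same nuclei as those markers was not tested.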

How the data were processed

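Accessibility was measured by snATAC-seq of VTA tissue from 2 libraries. The authors mapped reads to mm10 with Cell Ranger, filtered and clustered nuclei and removed doublets with ArchR, picked DNs as a cluster by accessibility at marker genes, made pseudobulk replicates and merged reproducible peaks of 500 bp by iterative overlap. The values used here are peak positions with no score or count. Aligned reads and signal tracks of DNs, which the paper states are also available, were not used. The list covered 27.7 Mb, 1.05% of the 19 autosomes and X. A further filter of peaks by the share of nuclei is described in the methods of the study, and the sources used here do not say if the list had passed it. Starts were read as counted from 0 and are printed counted from 1. Gene models were those of GENCODE M21, and sequence was read from GRCm38.

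Counts per gene, distances, CpG ratios and motif matches on both strands were computed with Python 3.11.15, numpy 2.4.6, scipy 1.17.1 and matplotlib 3.10.9, and the counting was tested on simulated data. The members and gene lists were chosen with earlier results of these data known. All 8 opioid genes were named. In each role list the genes without a peak and the 2 genes with most body peaks were named, as were neighbours with a promoter peak in a window. Alternatives were other windows, promoter limits, TSS sets and gene classes, peak centres, starts counted from 1, spans of basic transcripts and the central 200 bp. Values of 1 listed marker gene are not reported here. No test was run, because no replicate values are in the list.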

Additional observations from a re-analysis of the deposited data

How the results depend on the processing

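The promoter result was the same 3 genes, *Oprm1*, *Oprk1* and *Oprl1*, with a limit of 500 bp (54.5% of all protein-coding genes), with the TSSs of all transcripts (58.1%) and where the peak had to cover the TSS (49.9%). With a limit of 2 kb it was 4 genes, with *Penk* added. With the outer TSS alone it was 2 genes, *Oprk1* and *Oprl1*, since *Oprm1* is accessible 30081 bp inside its annotated start, and 53.4% of all genes. The number of peaks around the 8 genes was 39 with 50 kb on either side, 14 with 10 kb, 77 with 100 kb and 17 where the nearest protein-coding TSS had to be that of the opioid gene. *Oprk1* kept 2 peaks with 50 kb and with 10 kb, and *Oprd1* and *Pdyn* had 0 with 10 kb. Counting peaks by their centre left 1 body peak at *Oprk1* and 1 at *Oprl1*, since both promoter peaks have their centre before the gene. The share of genes with a promoter peak was 9.06%, 53.8% and 88.0% in the low, middle and high CpG classes, beside 56.4% in all, and the share with a body peak was 40.2%, 73.1% and 93.0% in the 3 length classes, beside 63.8%. In the central 200 bp of peaks, matches fell from 7 to 1 of the 39 peaks for forkhead sites, from 2 to 1 for full cAMP response elements, from 9 to 4 for TGACG, from 3 to 1 for the NBRE, and from 2 and 1 to 0 for the REST parts. For the NBRE the share was then 2.56%, beside 2.13% of all peaks. Shares over all peaks fell too in this shorter sequence, from 7.22% to 3.52% for forkhead sites and from 26.1% to 14.1% for TGACG. For full cAMP response elements the share over all peaks went from 1.51% to 1.16%. GC boxes stayed in 8 of the 39 peaks, AP-1 sites went from 6 to 5 and E-boxes from 3 to 2. In all, 44 of 76 alternative values were within 1.5 times of the value reported, and 32 were not. These include counts that stayed at 0, and gene classes and windows of another size, so the tally does not measure how stable the results are. With the list alone, no library could be left out and no stricter threshold could be set, because it pools the libraries and its peaks carry no score. No paired analysis was possible because the list has no values per replicate. Depth per peak is not given in the list, which limits every statement on a missing peak.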
